A study of Mus musculus with 3 samples.

Results

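The 4 Hox clusters of the mouse were examined for binding of Cbx2, a subunit of Polycomb repressive complex 1, in C3H10T1/2 cells. Their members were the peaks of the deposited Cbx2 table that overlap 4 windows on the mm9 build: Hoxa on chromosome 6 from 52.09 to 52.27 Mb, Hoxb on chromosome 11 from 96.04 to 96.24 Mb, Hoxc on chromosome 15 from 102.74 to 102.88 Mb and Hoxd on chromosome 2 from 74.48 to 74.615 Mb. The rule found 36 of the 2217 listed peaks, of which 6 lay in Hoxa, 14 in Hoxb, 8 in Hoxc and 8 in Hoxd. The clusters are represented by 38 Hox genes, all found in the gene table: 10 of Hoxa, 10 of Hoxb, 9 of Hoxc and 9 of Hoxd. The peak table carries no gene names and the gene table is on another build, GRCm38.p6. Peaks are therefore given by position, and only the order and neighbours of genes were taken from the gene table.

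C3H10T1/2 is a line of mesenchymal progenitor cells derived from mouse embryos of the C3H strain, used here at passage 10 to 15. The WT library is a chromatin immunoprecipitation (ChIP) of Cbx2 from cells that stably express FLAG-HA-tagged wild-type histone H3.3, and the K36M library is the same from cells that, by the sample title and design text, carry H3.3 in which methionine replaces lysine 36. The genotype label of the K36M library reads wild-type H3.3. The sources used here do not give the promoter of the transgene, the number of clones or the state of the cells' own histone genes. Each group has a single ChIP library, so no difference below was set against the spread between replicates, and no p-value is given. The WT library held 29278813 reads and the K36M library 36243012. The input library was not analysed here, and the identity of the cells was not checked, since no expression values are at hand.

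Hox genes encode homeodomain transcription factors that give cells their position along the body and limb axes. They lie in the clusters in the order in which they are used: genes of paralog group 1 at one end act early and towards the head, and genes of group 13 at the other end act late and towards the tail and the tips of the limbs. Polycomb complexes keep Hox genes silent outside their domains of expression, and the chromodomain of Cbx2 binds histone H3 methylated at lysine 27. Hoxa2 patterns the facial skeleton, Hoxb1 the hindbrain, Hoxc13 hair and nails, and Hoxa13 and Hoxd13 the digits. Positions below run from the group 1 end of each window to the group 13 end.

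Polycomb complexes are known to favour stretches rich in CpG dinucleotides. A pair of promoters from the Hoxa cluster is shown, picked by the ratio of observed to expected CpG and not by the number of CpG. Each run is the 250 bases before the annotated start in the RefSeq promoter table (GRCm38.p6, chromosome 6, minus strand), 5′ to 3′, with CpG dinucleotides in capitals. Among the promoters listed for 22 of the 38 genes, the Hoxa5 promoter had the highest ratio of observed to expected CpG, 1.02 over 300 bases, and the Hoxa9 promoter had the lowest in the same cluster, 0.280.
Hoxa5: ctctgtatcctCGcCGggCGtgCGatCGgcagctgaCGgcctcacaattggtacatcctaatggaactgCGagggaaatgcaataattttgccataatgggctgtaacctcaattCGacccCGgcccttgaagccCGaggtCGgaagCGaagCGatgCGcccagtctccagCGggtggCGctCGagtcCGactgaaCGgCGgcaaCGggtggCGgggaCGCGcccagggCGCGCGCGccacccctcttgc
Hoxa9: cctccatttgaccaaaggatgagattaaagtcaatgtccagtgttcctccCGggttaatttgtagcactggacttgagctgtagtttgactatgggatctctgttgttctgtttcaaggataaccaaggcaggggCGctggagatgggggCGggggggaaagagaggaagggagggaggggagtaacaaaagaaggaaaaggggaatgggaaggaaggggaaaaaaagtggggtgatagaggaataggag
The Hoxa5 run holds 28 CpG dinucleotides and the Hoxa9 run 3. Hoxa5 acts in the development of the lung and the neck skeleton, and Hoxa9 in blood stem cells. Neither promoter was tied to a peak, because the builds differ. A comparison of CpG content over all members was void, since under 80% of them have an entry.

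Cbx2 peaks covered the 4 clusters very unequally (plot of peaks along the clusters). They covered 73.9% of the 140 kb Hoxc window, 38.0% of the 200 kb Hoxb window, 25.5% of the 135 kb Hoxd window and 9.89% of the 180 kb Hoxa window. Peaks in Hoxc were also the longest, with a median of 10800 bp against 4600 bp in Hoxb, 3000 bp in Hoxd and 2300 bp in Hoxa. The median over all 2217 peaks was 1600 bp. Together the 36 peaks made up 1.62% of all peaks, 4.55% of the summed peak length and 4.99% of the reads in peaks in WT.

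**Figure D1:**
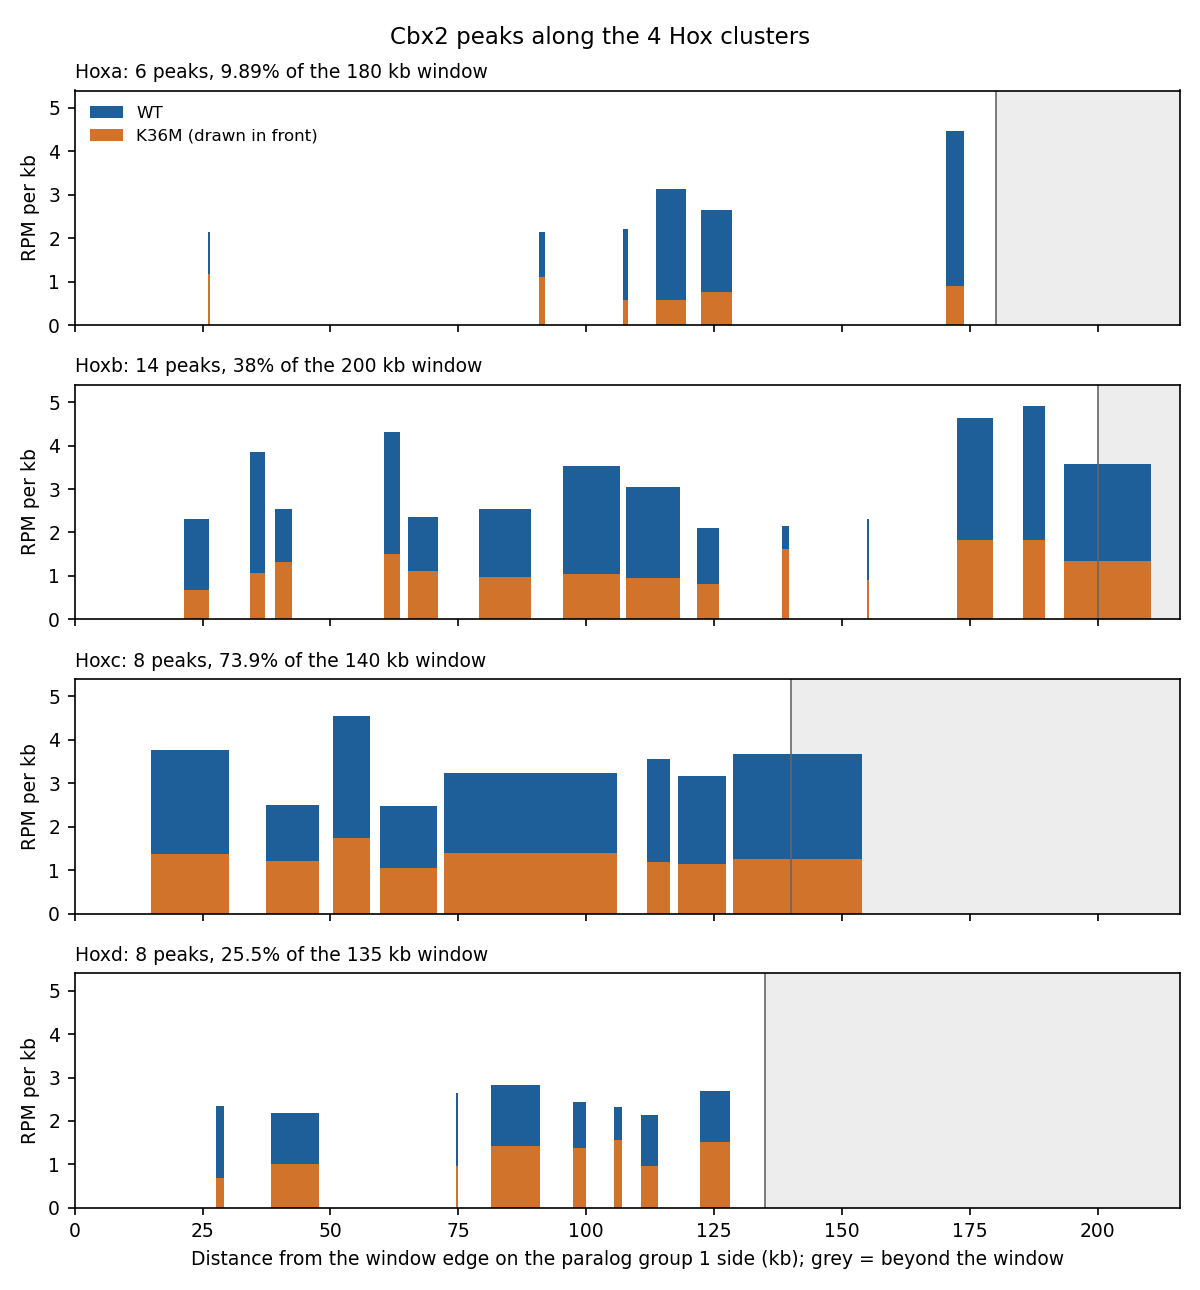
Cbx2 density (reads per 1000000 library reads, RPM, per kb of peak) of each peak against its distance in kb from the window edge on the paralog group 1 side, for WT (blue) and K36M (orange, drawn in front). Bar width is peak length and grey marks the region beyond the window. Hoxc peaks follow each other closely and cover 73.9% of the window, while Hoxa has 6 peaks and long stretches without any. All K36M bars are shorter than the WT bars on this RPM scale. When the medians of all peaks were made equal, 25 of the 36 peaks were higher in K36M, against 48.7% of all peaks.

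Summed over the peaks of a cluster, Hoxc held 392.02 RPM in WT and 152.8 RPM in K36M, and Hoxb held 282.9 and 102.8 RPM. Hoxd held 85.2 and 42.7 RPM, and Hoxa 54.9 and 13.4 RPM. The order of the clusters by summed signal was thus the same in both libraries, and it follows their covered length. Read density differed far less between clusters. In WT the summed reads over the summed peak length came to 3.34 RPM per kb of peak in Hoxc, 3.27 in Hoxb, 3.08 in Hoxa and 2.48 in Hoxd, and to 2.90 over all 2217 peaks. These densities amount to 19.6, 19.2, 18.0 and 14.5 WT reads per 200 bp. In K36M the density was 1.30 RPM per kb in Hoxc, 1.24 in Hoxd, 1.19 in Hoxb and 0.753 in Hoxa, and 1.20 over all peaks. By summed reads Hoxd thus stood below all peaks in WT and above them in K36M, and Hoxa the other way round. Medians of single peaks were 3.39, 2.80, 2.43 and 2.39 RPM per kb in WT (Hoxc, Hoxb, Hoxa and Hoxd, beside 2.35 over all peaks). In K36M, in the same order, they were 1.23, 1.10, 0.830 and 1.19, beside 0.828, so that a typical Hoxa peak was about as dense in K36M as a typical peak of the table.

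**Figure D2:**
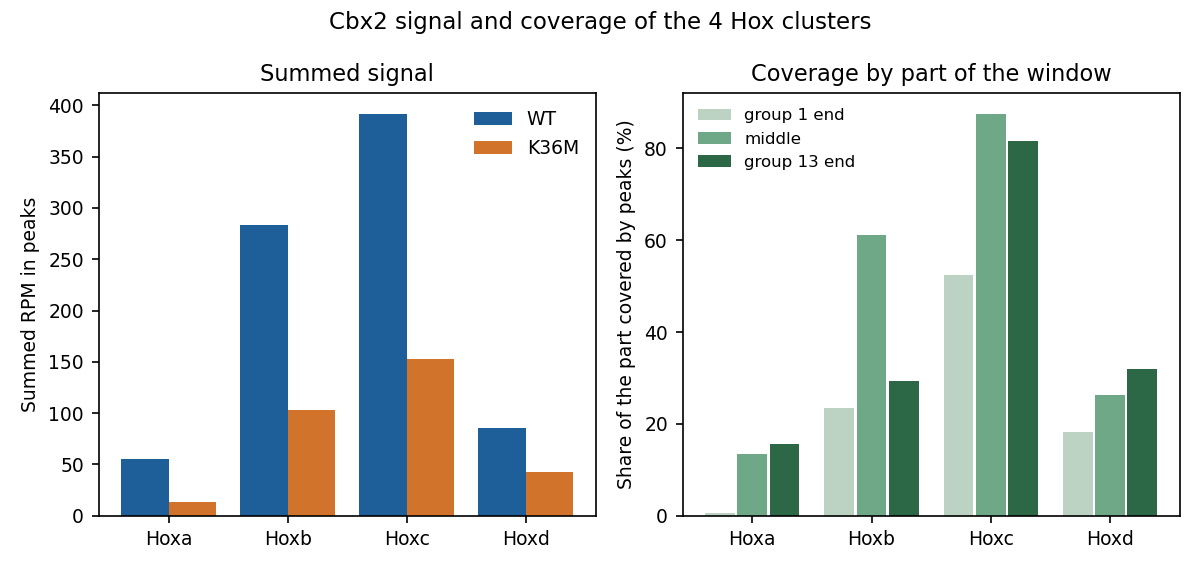
Left, summed RPM over the peaks of each Hox cluster in WT and K36M, 1 library each, so no error bars are drawn. Right, share in percent covered by peaks in each of 3 equal parts of the window, from the group 1 end to the group 13 end. Hoxc has the most signal and coverage, and in every cluster the group 1 part is the least covered. In Hoxb this rests on the peak that crosses the window edge on the group 13 side.

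On the RPM scale Cbx2 signal was lower in K36M at all 36 Hox peaks. Once both libraries had been given the same median over all peaks, a shift of 1.43 in log2, 25 of them were higher. With that scaling 48.7% of all peaks were higher in K36M. On that other scale the Hoxb, Hoxc and Hoxd sums lay above WT, with log2 ratios of 0.070, 0.17 and 0.53, and the Hoxa sum stayed below it at -0.50. Given the same sum over all peaks, only the Hoxd sum lay above WT, at 0.28. The K36M/WT ratio of summed reads was 0.244 in Hoxa (95% exact interval 0.220 to 0.271), a 4.09-fold lower signal. It was 0.363 in Hoxb (0.349 to 0.378), 0.390 in Hoxc (0.377 to 0.403) and 0.501 in Hoxd (0.470 to 0.534). Intervals on reads are for counting error only and leave out the spread between cultures. They may be too narrow even for counting error, since reads that went through PCR without molecular identifiers cannot be counted as separate molecules.

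By summed reads, the clusters ranked from Hoxa through Hoxb and Hoxc to Hoxd, and the interval of the quotient excluded 1 in all 6 pairs. The Hoxd ratio was 2.05 times the Hoxa ratio (95% interval 1.82 to 2.31), and Hoxb and Hoxc were the closest pair, with a Hoxc ratio 1.07 times that of Hoxb (1.02 to 1.13). The order of this pair did not hold otherwise: the median ratio of single peaks was 0.377 in Hoxb and 0.371 in Hoxc, and without the strongest peak of each cluster the log2 ratios, -1.47 (-1.53 to -1.41) and -1.42 (-1.48 to -1.37), had overlapping intervals. A change of library scaling multiplies all ratios alike and leaves these quotients as they are. How far the clusters would differ between cultures was not tested.

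**Figure D3:**
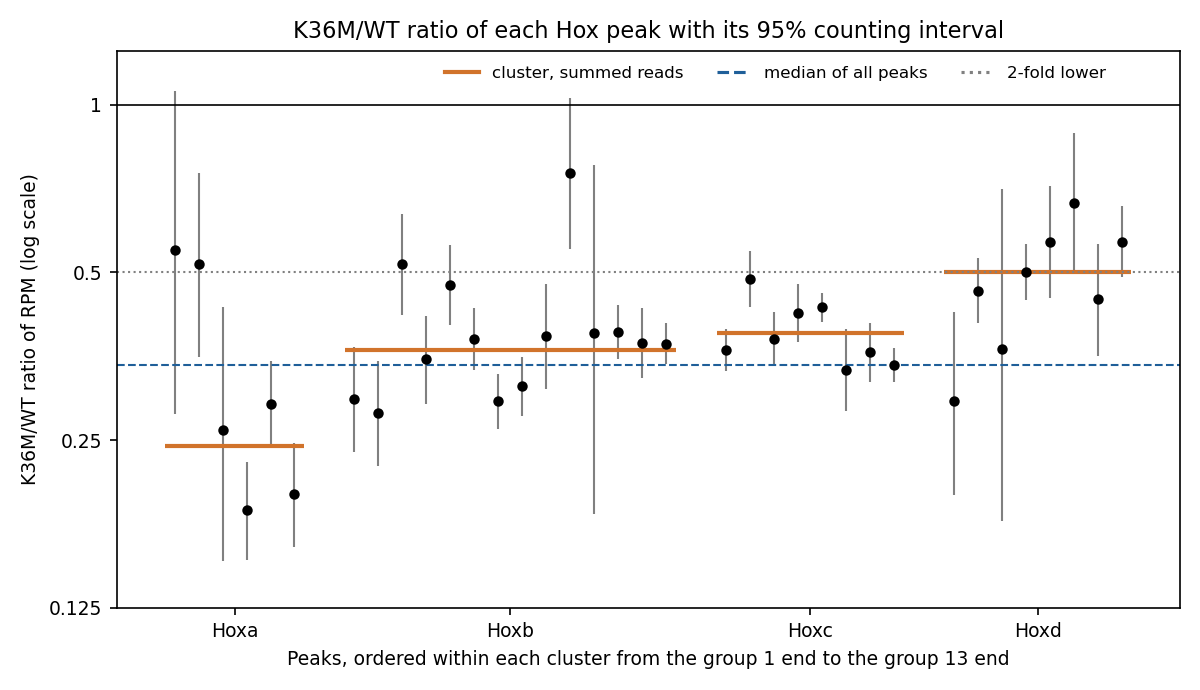
K36M/WT ratio of RPM (log scale) of each of the 36 Hox peaks, ordered from the group 1 end to the group 13 end, with 95% exact intervals that cover counting error only. Orange lines are the ratios of summed reads of each cluster, the dashed line is the median of all peaks, 0.341, and the dotted line marks a 2-fold lower signal. Hoxa peaks reach down to 0.187 and Hoxd peaks up to 0.667, apart from a Hoxb peak at 0.753. All ratios lie below 1 on the RPM scale. When the medians of all peaks were made equal, 25 of the 36 lay above 1, against 48.7% of all peaks.

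A K36M signal at least 2-fold below WT, on log2 values with a pseudocount of 0.1 RPM, was found at 28 of the 36 Hox peaks, against 75.3% of all peaks. The Hox share, 77.8%, is near that background. By cluster, 8 of 8 Hoxc peaks passed this limit, 12 of 14 in Hoxb, 4 of 6 in Hoxa and 4 of 8 in Hoxd. No Hox peak was higher in K36M, against 4.6% of all peaks. At 34 of the 36 peaks the whole 95% interval was below 1, against 86.8% of all peaks. These shares are not of like depth, since intervals narrow with more reads. Median WT signal was 15.7 RPM in Hox peaks and 3.83 RPM over all peaks. The median log2 ratio of the Hox peaks was -1.37, with quartiles of -1.59 and -1.05, beside -1.45 with quartiles of -1.81 and -1.004 over all peaks. These counts and medians rest on the RPM scaling: with equal medians in both libraries 0 Hox peaks were at least 2-fold lower and 25 were higher in K36M, and with the same sum 2 were at least 2-fold lower and 14 higher. Over all peaks, 3.47% were at least 2-fold lower and 48.7% higher with equal medians. With the same sum these shares were 8.39% and 33.7%.

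The Hoxc cluster formed a single chain of peaks. Its 8 peaks lay at most 7.2 kb apart and reached over 138.8 kb, from chr15:102726200-102751399 to chr15:102849800-102864999. When all listed peaks were joined wherever they lay up to 10 kb apart, a distance chosen with the values known, the table fell into 1819 chains, of which 269 held more than a single peak. The Hoxc chain ranked 1 among them by summed WT signal, by number of peaks and by span, and 2 by K36M signal.

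The strongest and longest Hoxc peak, chr15:102774000-102807799, was 33800 bp long and held 109.2 RPM in WT and 47.3 RPM in K36M. It was the sixth strongest peak of the whole table in WT and its length ranked 2. Its ratio was 0.433 (0.408 to 0.459). The 25200 bp peak that crosses the window edge on the group 13 side, chr15:102726200-102751399, held 92.4 and 31.5 RPM, a ratio of 0.341 (0.318 to 0.366). The highest ratio of the cluster, 0.487 (0.433 to 0.547), was at chr15:102832200-102842599, at 25.96 and 12.6 RPM. The lowest, 0.335 (0.282 to 0.396), was at chr15:102763600-102768199, with 16.3 and 5.46 RPM. Ratios within Hoxc thus spanned less than in any other cluster, although 3 of the 8 peaks had intervals that exclude the ratio of the cluster. The spans are not of like depth. Each Hoxc peak held at least 478 WT reads, while the other clusters include 400 bp peaks with 25 to 31 WT reads.

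Hoxb held the most peaks, and they fell into groups. A chain of 6 peaks from 96114000 to 96179599 on chromosome 11 spanned 65.6 kb and held 134.4 RPM in WT and 46.4 RPM in K36M, with a ratio of 0.345 (0.326 to 0.366). A chain of 3 peaks at the group 13 end, from 96029600 to 96067599, held 113.8 and 43.0 RPM, a ratio of 0.378 (0.356 to 0.402). By WT signal these chains ranked 7 and 12 of the 1819. The others were a chain of 3 peaks at the group 1 end, with 30.8 and 10.7 RPM, and 2 peaks that stood alone.

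The strongest and longest Hoxb peak was chr11:96029600-96046599, 17000 bp long, which crosses the window edge on the group 13 side. This peak held 60.7 RPM in WT and 22.6 RPM in K36M, with a ratio of 0.373 (0.343 to 0.405). Its neighbours at chr11:96050400-96054599 and chr11:96060600-96067599 had the highest WT densities of all Hox peaks, 4.90 and 4.65 RPM per kb. Their ratios were 0.374 and 0.391, close to that of the edge peak.

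Ratios within Hoxb spanned more than in Hoxc, over more peaks and some with far fewer reads. The lowest, 0.280 (0.225 to 0.346), was at chr11:96202800-96205799, near the group 1 end, where WT had 11.5 RPM and K36M 3.23 RPM. The highest, 0.753 (0.550 to 1.03), was at chr11:96100400-96101799, a 1400 bp peak that stood alone. It held 3.01 and 2.26 RPM, or 88 and 82 reads, so its lower signal in K36M lay within counting error. Of the 14 Hoxb peaks, 3 had intervals above the ratio of the cluster and 3 had intervals below it.

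Hoxd had the highest K36M/WT ratio of the clusters and the lowest density in WT. A chain of 6 peaks on the group 13 side, from 74487000 to 74540399 on chromosome 2, held 61.0 RPM in WT and 32.1 RPM in K36M, with a ratio of 0.527 (0.489 to 0.567), and a chain of 2 peaks on the group 1 side held 24.2 and 10.6 RPM, a ratio of 0.438 (0.385 to 0.496). The first of these ranked 28 of 1819 by WT signal and 21 by K36M signal. With equal medians over all peaks, 7 of the 8 Hoxd peaks were higher in K36M, against 48.7% of all peaks.

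The strongest and longest Hoxd peak, chr2:74524000-74533599, was 9600 bp long and held 27.1 RPM in WT and 13.6 RPM in K36M, with a ratio of 0.501 (0.447 to 0.562). The highest ratio, 0.667 (0.499 to 0.890), was at chr2:74508000-74509599, with 3.72 and 2.48 RPM. The lowest, 0.294 (0.199 to 0.425), was at chr2:74585800-74587399, the peak nearest the group 1 end, with 3.76 and 1.10 RPM. It was the only Hoxd peak whose interval excluded the ratio of the cluster. The peak nearest the group 13 end, chr2:74487000-74492799, held 15.5 and 8.83 RPM, a ratio of 0.568 (0.491 to 0.657). It was not tied to a gene, and Evx2 is the next gene on that side in the gene table.

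Hoxa was the least covered cluster and had the lowest K36M/WT ratio. The 64.4 kb from 52116400 to 52180799 and the 42.0 kb from 52218400 to 52260399 on chromosome 6 held no listed peak. In Hoxc the longest such stretch was 7.2 kb, in Hoxb 18.0 kb and in Hoxd 26.8 kb. A stretch without a listed peak is not shown to lack Cbx2, since no listed peak had under 9.5 WT reads per 200 bp and less dense regions are not in the table.

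The strongest Hoxa peak, chr6:52203600-52209399, was 5800 bp long and held 18.1 RPM in WT and 3.39 RPM in K36M. Its ratio of 0.187 (0.153 to 0.228) was the lowest of all 36 Hox peaks. The longest, chr6:52212400-52218399 at 6000 bp, held 15.9 and 4.61 RPM, a ratio of 0.290 (0.242 to 0.347). The peak nearest the group 13 end, chr6:52260400-52263799, held 15.2 and 3.04 RPM, a ratio of 0.200 (0.161 to 0.247), at a WT density of 4.47 RPM per kb. The highest ratio in Hoxa, 0.549 (0.278 to 1.06), came from the 400 bp peak nearest the group 1 end, chr6:52116000-52116399, with 25 reads in WT and 17 in K36M. Its interval includes 1, so no difference was detectable at this depth. The peaks with 18.1, 15.9 and 15.2 RPM in WT carry most of the Hoxa sum. Without the strongest peak the log2 ratio of the cluster moved from -2.03 to -1.87. The weaker peak chr6:52180800-52181999, with 2.56 and 1.32 RPM, had a ratio of 0.517 (0.352 to 0.753). Of the 6 Hoxa peaks, 2 had intervals above the ratio of the cluster and 1 had an interval below it.

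Each window was cut into 3 equal parts. The part at the group 1 end was the least covered in all 4 clusters, in Hoxb only with its edge peak counted. Coverage did not rise steadily towards group 13 in Hoxb and Hoxc, and the ratio went with position in different ways. In the part at the group 1 end, peaks covered 0.667% of Hoxa, 23.5% of Hoxb, 52.4% of Hoxc and 18.2% of Hoxd. In the group 13 part they covered 15.7%, 29.4%, 81.6% and 32.0%. The middle part was the most covered in Hoxb (61.1%) and Hoxc (87.6%). In Hoxb the group 13 part includes the bases of the edge peak that lie inside the window. The midpoint of that peak lies outside, and leaving it out lowered coverage of the whole Hoxb window to 34.7%. The order of the Hoxb end parts by coverage rests on that peak.

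The ratio of summed reads in Hoxd was 0.438 (0.385 to 0.496) in the group 1 part, 0.496 (0.443 to 0.555) in the middle and 0.553 (0.500 to 0.611) in the group 13 part. Hoxc ran the other way at its end, with 0.402 (0.375 to 0.430), 0.421 (0.401 to 0.441) and 0.344 (0.325 to 0.364). In Hoxb the parts had 0.349 (0.316 to 0.385), 0.345 (0.324 to 0.366) and 0.388 (0.365 to 0.411), and the end parts overlapped in their intervals. In Hoxa the group 1 part held the single 400 bp peak, and the middle and group 13 parts had 0.231 (0.196 to 0.272) and 0.246 (0.214 to 0.282). No common direction along the clusters was seen. The log2 ratio of the group 13 part minus that of the group 1 part was 0.34 in Hoxd (95% interval 0.11 to 0.57), -0.22 in Hoxc (-0.35 to -0.093), 0.15 in Hoxb (-0.013 to 0.32) and -1.16 in Hoxa (-2.07 to -0.25), the last resting on 42 reads at the group 1 end. With each window cut into 2 equal parts, the difference in Hoxc shrank to -0.064 (-0.16 to 0.032) and that in Hoxb turned to -0.088 (-0.21 to 0.033), while Hoxd kept 0.27 (0.059 to 0.48).

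Across single peaks, Spearman's rho of the ratio with distance from the group 1 edge was 0.67 in Hoxd (8 peaks), 0.30 in Hoxb (14), -0.60 in Hoxc (8) and -0.71 in Hoxa (6). These describe peaks that share libraries and neighbours, and no p-value is given. Over the 36 peaks, rho of peak length with WT density (RPM per kb) was 0.45 and that of length with the ratio was -0.14. For WT density with the ratio, rho was -0.45 over the 36 peaks. By cluster it was -0.89 in Hoxa, -0.38 in Hoxb, -0.43 in Hoxc and 0.19 in Hoxd. WT signal enters both the density and the ratio, and the cause of this relation was not tested.

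Broad peaks were common in the Hox clusters. Of the 36 members, 18 (50.0%) were 5200 bp long or more, against 270 of the 2181 peaks outside the windows (12.4%). The broad Hox peaks were 6.25% of all 288 broad peaks. By cluster they numbered 7 of 8 in Hoxc, 6 of 14 in Hoxb, 3 of 8 in Hoxd and 2 of 6 in Hoxa. In WT their median density was 3.08 RPM per kb, beside 2.51 in the other broad peaks. In K36M these medians were 1.18 and 0.764 RPM per kb. The median log2 ratio was -1.39 in broad Hox peaks and -1.76 in other broad peaks, and the ratios of summed reads were 0.385 (0.375 to 0.394) and 0.354 (0.352 to 0.357). At least 2-fold lower signal was seen at 16 of 18 and at 247 of 270 (91.5%). Shorter Hox peaks had a median log2 ratio of -1.30, beside -1.40 in other peaks of that length. These are descriptions of the sets on the RPM scale, and the difference between them was not tested.

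**Figure D4:**
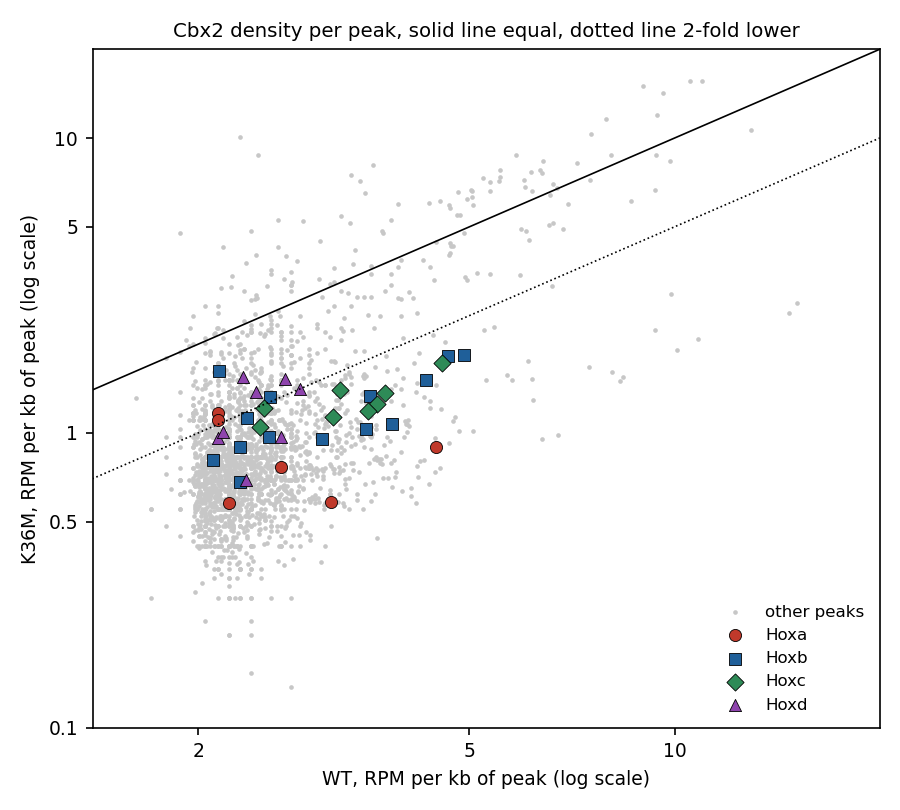
Cbx2 density of every listed peak in K36M against WT, in RPM per kb of peak on log axes. Hox peaks are coloured by cluster and other peaks are grey. The solid line marks equal density and the dotted line a 2-fold lower one. All Hox peaks lie below the solid line on this RPM scale. They lie between 2.10 and 4.90 RPM per kb in WT and between 0.579 and 1.83 in K36M. With the medians of all peaks made equal, 25 of the 36 would lie above the solid line, against 48.7% of all peaks.

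Peaks just beyond the windows were not alike. On the group 13 side of Hoxa, where the next gene in the gene table is Evx1, another homeobox gene, chr6:52270800-52272399 began 0.8 kb past the edge and held 6.97 RPM in WT and 1.08 RPM in K36M, with a ratio of 0.154 (0.107 to 0.218). On the group 1 side of Hoxc, chr15:102884800-102891199 lay 4.8 kb past the edge with 16.3 and 6.13 RPM, a ratio of 0.376 (0.319 to 0.442). On the group 1 side of Hoxd the next peak lay 18.4 kb away, with 2.32 and 0.607 RPM. The nearest peaks beyond Hoxb lay 54.2 kb away on the group 13 side and 87.4 kb on the other, and the nearest beyond Hoxc on the group 13 side 42.4 kb. Beyond the group 1 side of Hoxa and the group 13 side of Hoxd, no peak was listed for 953 and 862 kb.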

How the data were processed

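Cbx2 was measured by ChIP-seq in 1 WT and 1 K36M library, with 1 input library. Fixation was in 1% formaldehyde for 10 min per the labels' protocols, and 5% of the chromatin was kept as input. Bowtie 1.0.0 and the mm9 build are named in the submitters' processing notes. How peaks were called, on which libraries and whether with the input, is not given in the sources used here. The labels name different antibody suppliers in different fields.

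The deposited table gives reads in each peak per 1000000 reads of the library (RPM). The header reads RPKM, but 100% of values in each column were whole multiples of 1 step, within 1e-06 of a read, whatever the peak length. The step gave the library totals and the reads per peak. The WT column was read as the Cbx2 ChIP, as the table is named for Cbx2. Positions are printed as in the table, and lengths count both ends.

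A peak was a member when it overlapped a window by any amount. Ratios are of RPM without background subtraction, with 95% exact (Clopper-Pearson) intervals given the reads of both libraries. Quotients of ratios carry log-normal intervals from the same reads. Counts of 2-fold lower peaks and median log2 ratios use a pseudocount of 0.1 RPM, which understates changes of weak peaks. A count model across replicates could not be fitted with 1 library per group. The work used Python 3.11.15, numpy 2.4.6, pandas 2.3.3 and scipy 1.17.1 and was tested on simulated reads. Peaks named are, per cluster, the strongest, the longest and those with the lowest and highest ratio, and the nearest outside each window. Chosen with their values known were the end peaks of Hoxc, Hoxd and Hoxa, a weaker Hoxa peak and the neighbours of the Hoxb edge peak. Members, windows and rules were chosen with earlier results of these data known. Alternatives were other scalings, pseudocounts, fold limits, a filter on weak peaks, other window rules and cuts, and, added after seeing the data, leaving out the strongest peak of each cluster.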

Additional observations from a re-analysis of the deposited data

How the results depend on the processing

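The scaling of the libraries decided direction. With the same median over all peaks, the log2 ratios of Hoxa, Hoxb, Hoxc and Hoxd moved from -2.03, -1.46, -1.36 and -0.996 to -0.50, 0.070, 0.17 and 0.53, the median of Hox peaks from -1.37 to 0.13, and the counts of peaks at least 2-fold lower and of higher peaks to 0 and 25. With the same sum, these values were -0.76, -0.19, -0.084, 0.28 and -0.12, with 2 and 14 peaks. Over all peaks, 3.47% were at least 2-fold lower and 48.7% higher with the same median. With the same sum these shares were 8.39% and 33.7%. A 3-fold limit left 9 peaks; pseudocounts, a 1.5-fold limit and the filter on weak peaks gave 23 to 34. Counting only peaks with their midpoint in the window gave a Hoxc log2 ratio of -1.30 and coverage of 34.7% in Hoxb and 65.7% in Hoxc, since the edge peaks drop out. Windows wider by 50 kb on each side held 42 peaks and gave coverage of 6.93%, 28.8%, 52.3% and 16.2% in Hoxa to Hoxd. Without the strongest peak the Hoxa and Hoxc log2 ratios were -1.87 and -1.42, and the intervals of Hoxb and Hoxc overlapped. With 2 equal parts of each window in place of 3, the difference along the cluster became -0.088 in Hoxb and -0.064 in Hoxc; the cause was not tested. Medians of peak densities were 14.2 (Hoxa) and 16.4 (Hoxb) WT reads per 200 bp, against 18.0 and 19.2 from sums. In all, 26 of 54 alternatives left a value within its limit. For ratios and densities the limit was the counting interval, and for counts 1.5 times. For coverage it was a change under 1%, and for the median log2 ratio an interval from the ranked Hox peaks. No replicate could be left out. No paired analysis was possible because WT and K36M have 1 ChIP library each. The CpG comparison of promoters was void, as too few members have an entry, and its values are not reported. Depth limits the 400 bp peaks most, the smallest of which had 25 WT reads.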
